A study of Mus musculus with 6 samples.

Results

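MicroRNAs that bypass Drosha or Dicer, or that come from the body of another small RNA, were examined in mouse BMMs through 5 hairpins, Mir320, Mir484, Mir877, Mir451a and Mir1839, of the 1174 hairpins searched. The 5 were chosen by name for how they are known to be made, and reads of at least 18 nt were placed on them by exact match, tolerating as many as 3 unmatched bases at the 3′ end. Reads were found on all 5, and 4 of them, all but Mir451a, held at least 10 reads in every sample, while 708 of the 1174 hairpins had any read.

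The cells were bone marrow cells of C57BL/6 wild type mice, which the labels call bone marrow monocytes. The 3 Control samples received no LPS and the 3 LPS samples received 5 pg/ml LPS, a cell wall component of Gram-negative bacteria, for 4 h. The labels give DMEM as the medium and the study's methods give RPMI. Neither source says whether the samples of a group came from separate animals, so a p-value measures only the spread between these samples. Small RNAs were sequenced, and each value starts from the number of times a distinct read was seen.

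In the canonical pathway the nuclear enzyme Drosha, with DGCR8, cuts a hairpin out of a long transcript, and Dicer then cuts off the loop to leave a duplex of a 5p and a 3p strand. The members leave this route at different steps. miR-320 and miR-484 are known as short capped transcripts whose hairpin needs Dicer but not Drosha. miR-877 is a mirtron, a whole spliced intron that folds into a hairpin without Drosha. miR-451a skips Dicer: its short hairpin is cut by Ago2 and then trimmed at the 3′ end, and it is known from red blood cell precursors. The Mir1839 hairpin overlaps the 3′ end of a small Cajal body RNA (scaRNA), a class that guides the modification of spliceosomal RNAs. The seed, bases 2 to 8 of a miRNA, pairs with its targets and moves when the 5′ end moves.

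The samples held 2201520 to 17691405 reads, of which 61.6% to 71.0% lay on hairpins. LPS replicate 2 stood apart from the other 5 samples in measures that do not use the members. It was the deepest, 18.6% of its distinct sequences were read once against 67.1% to 74.6% in the others, and miR-24-3p made up 5.74% of its hairpin reads against 0.151% to 0.226%. Myeloid markers (Mir223, Mir142 and Mir21a) summed to 160081 to 200530 RPM (reads scaled to a total of 1000000 hairpin reads) in the Control samples and 158415 to 199384 in the LPS samples, and Mir122 of liver stayed at 1.83 or less. Muscle markers (Mir1a and Mir133a) stayed at 0.583 or less. Epithelial markers (Mir200a, Mir200b, Mir200c and Mir141) summed to 64.5 to 81.7 RPM in the Control samples and to 67.2, 157 and 71.4 in LPS replicates 1 to 3. They did not rise together in LPS replicate 2. There miR-200a-3p, miR-200b-3p and miR-200c-3p were at 43.7, 57.9 and 29.6 RPM, the highest of the samples. miR-141-3p was at 20.6 RPM there, below its 27.8, 37.9 and 27.9 in the Control samples.

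The mature sequences show what each member would deliver as a miRNA. RefSeq (GRCm38.p6) matched 4 of the 5 hairpins, all but Mir320, and its entries are given 5′ to 3′ with the seed in capitals.

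miR-484: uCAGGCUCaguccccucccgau

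miR-877-5p: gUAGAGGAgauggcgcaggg

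miR-877-3p: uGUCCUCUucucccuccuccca

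miR-451a: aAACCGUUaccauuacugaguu

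miR-1839-5p: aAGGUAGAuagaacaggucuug

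No 2 of these share a seed, and none of the other mature entries among the 1738 in that RefSeq set carries any of these 5 seeds.

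Their places in the GRCm38 genome (GENCODE M21) show the different starting transcripts. Mir320 spans chr14:70443510-70443591 on the plus strand, outside annotated genes, and its 5′ end lies 63 bp from the start of Polr3d, an RNA polymerase III subunit gene that runs the other way. Mir484 spans chr16:14159626-14159692 on the plus strand and overlaps, on the opposite strand, part of an exon of Marf1. Mir877 spans chr17:35960730-35960814 on the minus strand and has exactly the ends of intron 12 of Abcf1 (transcript Abcf1-201), 85 bp long. Mir451a spans chr11:78073170-78073241 on the plus strand, 99 bp downstream of Mir144, with Mir451b annotated on the other strand. Mir1839 spans chr7:81529916-81529988 on the plus strand, within an exon of the long noncoding RNA gene 2900076A07Rik and within intron 3 of its transcripts 2900076A07Rik-203 and 2900076A07Rik-207, and starts at position 62 of a 127 nt scaRNA.

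Read coverage along the hairpins, in RPM, separated the members by the arms they left behind. Coverage lay on 1 arm for Mir320 and Mir484, on both for Mir877, and mostly on the 5p arm for Mir1839.

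**Figure D1:**
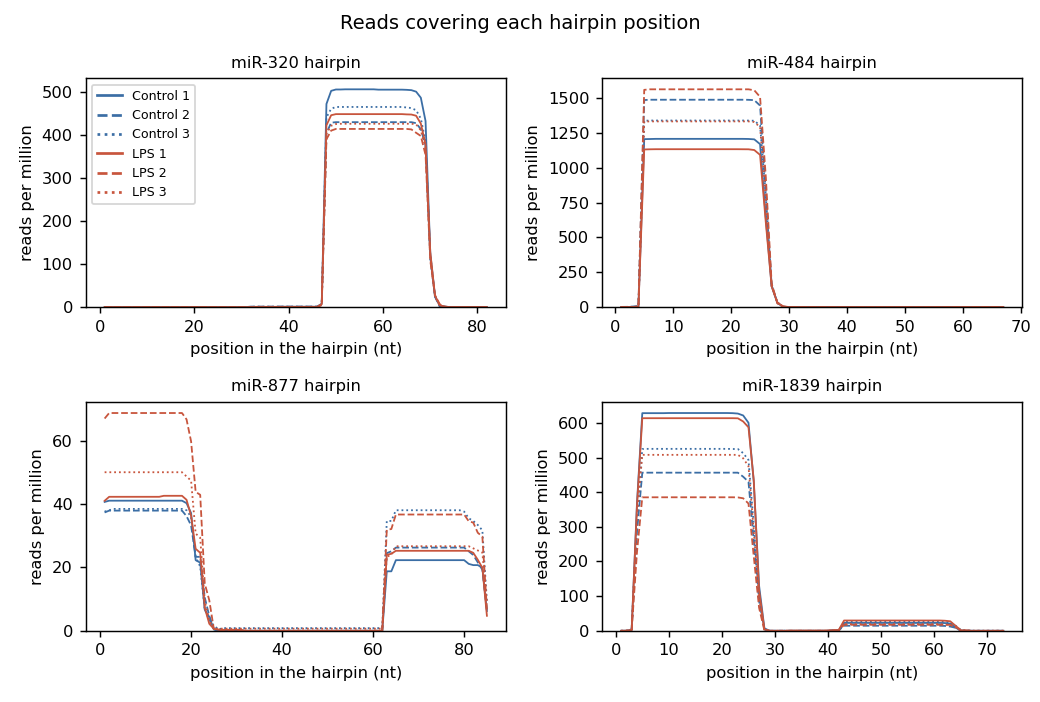
Reads covering each position of 4 hairpins, in RPM (y axis, from 0) against the position from the first base of the hairpin in nt (x axis). Each line is 1 sample, with Control in blue and LPS in red. Mir320 is covered on its 3p arm, Mir484 on its 5p arm, Mir877 on both arms from its first base on, and Mir1839 mainly on its 5p arm.

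Mir320 kept its 3p arm almost alone. The 3p arm was read 1295, 737 and 1101 times in Control replicates 1 to 3 and 1422, 4527 and 639 times in LPS replicates 1 to 3. The 5p arm had 0, 2, 2, 2, 0 and 0 reads in the same order, 6 of 9727 reads in all or 0.0617%. Among 99 other hairpins with at least 100 reads in every sample the median share of the minor arm was 2.01%, and 14 of the 99 had a smaller one than Mir320. An arm merged between hairpins was counted as 0 for each single hairpin, Mir24-2, Mir125b-2 and Mir16-1 among them. The median can thus be too low, and the counts out of the 99 too high.

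Mir484 left reads only on its 5p arm. That arm was read 3087, 2550 and 3167 times in Control replicates 1 to 3 and 3590, 17075 and 1997 times in LPS replicates 1 to 3. The 3p arm had 0 of 31466 reads, which allows a share of up to 0.00953%. This limit, like the intervals given for shares, covers counting error only, because reads made by PCR are not independent molecules. Of the 99 other hairpins, 10 had no read counted on the minor arm either, but these include hairpins such as Mir24-2 whose other arm was merged and was read.

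Mir877 left reads on both arms of the folded intron. Its 5p arm had 105, 65 and 91 reads in the Control samples and 135, 751 and 75 reads in the LPS samples, against 57, 45 and 92 and then 80, 401 and 41 reads for the 3p arm. The 5p share was 64.8% (95% Wilson interval 57.2% to 71.7%), 59.1% (49.7% to 67.8%) and 49.7% (42.6% to 56.9%) in Control replicates 1 to 3 and 62.8% (56.2% to 69.0%), 65.2% (62.4% to 67.9%) and 64.7% (55.6% to 72.8%) in LPS replicates 1 to 3. Control replicate 3 was the one sample with as many 3p as 5p reads, and the groups overlapped. The means were 57.9% ± 7.6 (SD, n = 3) without LPS and 64.2% ± 1.3 (SD, n = 3) with it, at p = 0.3 in a two-sided exact permutation test, for which 3 samples against 3 allow no p below 0.1. The difference of 6.33 percentage points was 2.26 without Control replicate 3 and 9.80 without Control replicate 1. The minor arm held 36.9% of all Mir877 reads, a larger share than in 94 of the 99 other hairpins, a count that merged arms can make too high.

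Mir1839 reads came mainly from the 5p arm, with 1607, 782 and 1242 reads in the Control samples and 1944, 4210 and 761 reads in the LPS samples. The 3p arm had 58, 25 and 62 reads and then 94, 189 and 29 reads. The 5p share was between 95.2% and 96.9% in all 6 samples, 96.2% ± 0.87 (SD, n = 3) in the Control and 95.8% ± 0.48 (SD, n = 3) in the LPS samples (p = 0.5 by the exact permutation test). Its minor arm, at 4.15%, was larger than in 60 of the 99 other hairpins, a count with the same limit.

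**Figure D2:**
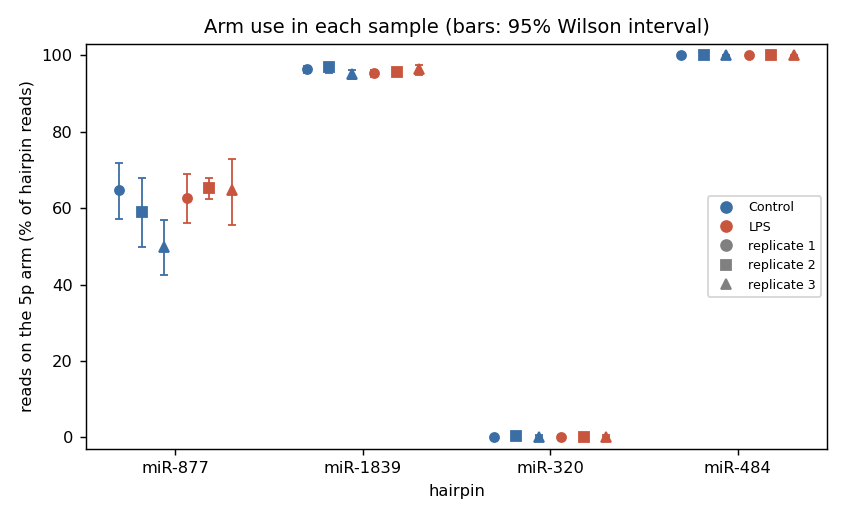
Share of reads on the 5p arm, in percent of the reads of the hairpin (y axis, 0 to 100), for 4 hairpins (x axis). Points are samples, with Control in blue and LPS in red, and bars are 95% Wilson intervals for counting error. Mir484 sits at 100% and Mir320 near 0% in every sample, and Mir877 lies between 49.7% and 65.2%.

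Mir451a was close to absent. The 5p arm, which holds the mature sequence, had 1 read in Control replicate 2, 6 reads in LPS replicate 2 and 0 reads in the other 4 samples, and the 3p arm had none. The level was 0.583 RPM in Control replicate 2 and 0.549 in LPS replicate 2. In the 4 samples at 0, the limit set by 3 counts was between 0.947 and 2.00 RPM. All 7 reads began at hairpin position 17, the first base of the RefSeq entry. The 6 reads of LPS replicate 2 were 21 nt long, 1 base shorter than that entry, and the single read of Control replicate 2 was 23 nt, 1 base longer. The 22 nt entry itself had 0 reads. With 7 reads, the 3′ ends left by trimming could not be compared between groups at this depth.

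miR-451a, 21 nt: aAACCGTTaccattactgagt

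miR-451a, 23 nt: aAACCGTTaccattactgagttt

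These are the only forms of miR-451a seen, with the seed in capitals, and both hold the same 21 bases. Mir144, its neighbour and also an erythroid miRNA, had 0, 1 and 0 reads on its 5p arm in the Control samples and 1, 1 and 1 in the LPS samples. The erythroid list of Mir144 and of Mir486 and Mir3107, which share reads, measured without Mir451a, summed to 784 to 1032 RPM in the Control and 611 to 1010 in the LPS samples, nearly all of it from the shared 5p arm of Mir486 and Mir3107.

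The 5′ ends, counted from the first base of each annotated hairpin, were most uniform for miR-484-5p and miR-877-5p and were split for miR-1839-5p. miR-484-5p began at position 5 in 99.6% ± 0.18 (SD, n = 6) of its reads, with 99.7%, 99.3% and 99.7% in Control replicates 1 to 3 and 99.7%, 99.4% and 99.7% in LPS replicates 1 to 3. The median over 144 other arms with at least 100 reads in every sample was 98.7%. miR-877-5p, miR-877-3p and miR-1839-3p, with as few as 65, 41 and 25 reads in a sample, would not themselves meet that limit. miR-320-3p began at position 48 in 92.9% ± 0.65 (SD, n = 6) of its reads and 1 base later in 5.05%, and 32 of the 144 other arms had a less uniform start.

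miR-877-5p began at position 1, the first base of the Abcf1 intron, in 98.2% ± 1.3 (SD, n = 6) of its reads. The shares were 99.0%, 98.5% and 97.8% in the Control samples and 96.3% and 97.5% in LPS replicates 1 and 2, and in LPS replicate 3 all reads began there, so nearly every read began at the splice site. That start was less uniform than in 79 of the 144 other arms and more uniform than in 65. The start of miR-877-3p, inside the intron, was at position 63 in 88.4% ± 4.9 (SD, n = 6) of its reads and 2 bases later in 9.74%, and 116 of the 144 other arms had a more uniform start. The 3′ side of the intron ends at position 85. Of the miR-877-3p reads without unmatched bases, 57.4% ± 18.1 (SD, n = 6) ended at position 84. Another 19.1% ended at position 85, the last base of the intron, with 6.997% at position 82 and 8.10% at position 83. These shares rest on few reads, because 77.8% on average of the 41 to 401 reads per sample carried unmatched bases. The share at position 84 ran from 30.8% to 84.6%, and in LPS replicate 1 position 85 was the main end, at 38.5%. In the minimum free energy fold from RNAfold, the bases at both ends of the intron were unpaired. Counted on from the nearest pair, position 84 left a 3′ overhang of 0 nt on the first base of the intron. At the loop side the same measure for the main 5p end, position 22, was -2 nt, so that end stopped short of the base opposite the 3p start.

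miR-1839-5p had 2 starts in every sample. Position 4, the start of the RefSeq entry, took 57.9%, 61.6% and 60.6% of the reads in Control replicates 1 to 3 and 58.3%, 58.2% and 64.5% in LPS replicates 1 to 3. Position 5 took 41.4%, 37.6% and 38.6% and then 41.1%, 41.1% and 34.95%. The share at position 4 was 60.1% ± 1.9 (SD, n = 3) in the Control and 60.3% ± 3.6 (SD, n = 3) in the LPS samples (p = 0.8 by the two-sided exact permutation test), and 8 of the 144 other arms had a less uniform start. The most read forms from each start are shown with their seeds in capitals, as DNA letters from the reads.

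miR-1839-5p, start 4: aAGGTAGAtagaacaggtcttgt

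miR-1839-5p, start 5: aGGTAGATagaacaggtcttgtt

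Both forms are 23 nt long, and the second is the first moved by 1 base at both ends, so its seed differs. The first made up 28.4% of the arm on average (2923 reads) and the second 15.8% (1664 reads). The 22 nt RefSeq entry, which starts at position 4, came between them with 18.2% (1902 reads), and the same entry with an unmatched A added held 5.63%. No other RefSeq mature entry had either seed. Forms of 22 nt and 21 nt from position 5 added 13.3% and 5.79%.

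The reads of Mir1839 were set against the scaRNA it overlaps. Of 11008 reads on the scaRNA, 95.8% lay on the 5p arm of the hairpin, 4.15% on the 3p arm, and 5 reads lay upstream of the hairpin. The hairpin runs 7 bases past the 3′ end of the annotated scaRNA, whose last base is hairpin position 66. miR-1839-3p began at position 43 in 93.4% ± 2.8 (SD, n = 6) of its reads and ended mostly before that base, with 37.8% of exactly matching reads at position 63 and 52.7% at position 64, and 15 reads in all ended at position 66 itself. In the RNAfold structure the main 5p and 3p forms made a duplex with 3′ overhangs of 3 nt at both ends. The main 5p start was unpaired in that fold, so the overhang at its end was counted on from the nearest pair. The main forms of both arms also match 2900076A07Rik and the scaRNA, so the precursor of a read cannot be told from its sequence.

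The 3′ ends were less uniform than the 5′ ends. Among reads that matched throughout, miR-484-5p ended at positions 25, 26 and 27 in 35.4%, 50.1% and 11.1%, and miR-1839-5p ended at positions 25, 26 and 27 in 27.8%, 47.6% and 19.9%. miR-320-3p ended at position 69 in 68.6%, at position 70 in 17.2% and at position 68 in 5.63%. Its most read form, 22 nt from position 48 to 69, held 41.9% of the arm, the form 1 base longer held 10.2%, and these forms with an unmatched T added held 8.05% and 7.03%. miR-877-5p spread furthest, with 43.1% at position 22, 17.2% at 23, 17.5% at 24, 13.6% at 20 and 5.15% at 21. The median share at the most used end over the 144 other arms was 68.0%, and 16 of them lay below miR-877-5p.

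**Figure D3:**
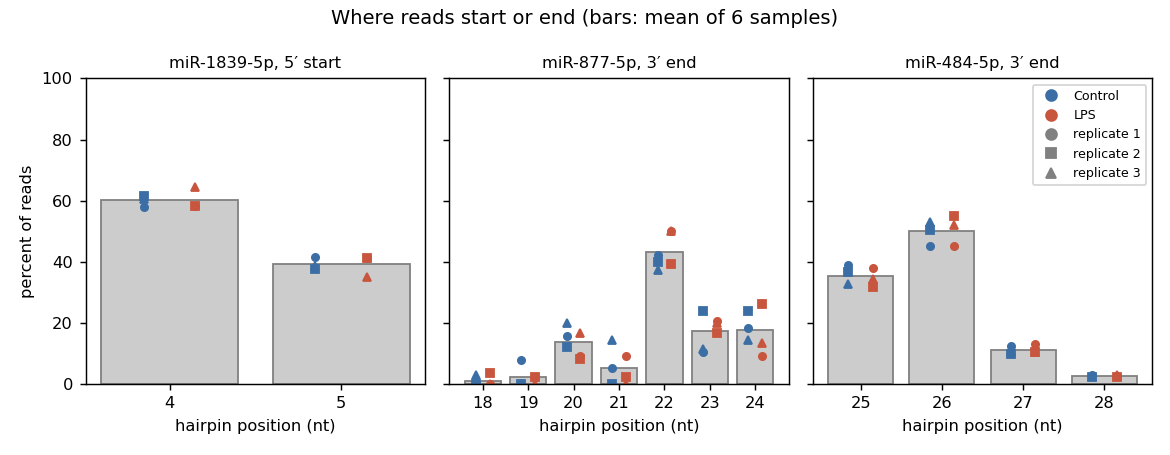
Percent of reads (y axis, 0 to 100) by hairpin position in nt (x axis) for the start of miR-1839-5p, the 3′ end of miR-877-5p and the 3′ end of miR-484-5p. Grey bars are means of 6 samples, points are samples (Control blue, LPS red), positions below 1% on average are not drawn, and 3′ ends are from reads that match throughout. miR-1839-5p has 2 starts, at 60.2% and 39.1%, in both groups.

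Bases added at the 3′ end, seen as 1 to 3 terminal bases that do not match the hairpin, were most common on the mirtron. An added base equal to the next hairpin base counts as matching, and a sequencing error in the last bases counts as unmatched. miR-877-3p carried such bases in 77.2%, 77.8% and 75.0% of its reads in Control replicates 1 to 3 and in 83.8%, 72.8% and 80.5% in LPS replicates 1 to 3. miR-877-5p carried them in 63.8%, 61.5% and 61.5% and then in 67.4%, 59.3% and 60.0%. The median over the 144 other arms was 15.1%, and the share of miR-877-3p, 77.8% ± 3.9 (SD, n = 6), was higher than that of 139 of them, while that of miR-877-5p, 62.3% ± 3.0 (SD, n = 6), was higher than that of 133. The common forms show the bases, with those that do not match the hairpin in capitals.

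miR-877-5p, matching: gtagaggagatggcgcagggga

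miR-877-5p, 1 added: gtagaggagatggcgcaggggaA

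miR-877-5p, 2 added: gtagaggagatggcgcagggAA

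miR-877-3p, matching: tgtcctcttctccctcctccca

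miR-877-3p, 1 added: tgtcctcttctccctcctcccaT

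miR-877-3p, 2 added: tgtcctcttctccctcctcccaAT

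miR-877-3p, 2 added: tgtcctcttctccctcctcccaTT

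The 3 forms of miR-877-5p held 16.2%, 7.81% and 8.68% of the arm, and the 4 forms of miR-877-3p held 12.2%, 9.003%, 6.30% and 5.16%, in the order given. Of the other miR-877-5p forms of at least 5%, the 20 nt form with 1 added A held 8.42%, and the matching forms of 24 and 23 nt held 6.42% and 6.09%. Shares of the first unmatched base, for these and the other arms, are from reads pooled over the samples, which weights LPS replicate 2 most. That base was A in 75.0% and T in 23.9% of the tailed miR-877-5p reads. In the tailed miR-877-3p reads it was A in 46.5% and T in 53.0%. By sample, A ran from 36.2% to 63.6% and T from 34.1% to 63.8% on miR-877-3p, so their order was not stable. The median over the other arms was 40.7% for A and 52.7% for T. The RefSeq form of miR-877-5p, 20 nt long, was 5.16% of the arm, and the most read form was 2 bases longer.

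miR-320-3p carried unmatched bases in 38.9%, 34.1% and 36.2% of its reads in the Control samples and in 39.7%, 33.9% and 30.2% in the LPS samples, 35.5% ± 3.5 (SD, n = 6) on average, above 115 of the 144 other arms. T was the first unmatched base in 86.1% of them. miR-484-5p carried unmatched bases in 28.1% ± 2.0 (SD, n = 6), above 100 of the other arms, with A first in 48.3% and T in 43.7%. Its RefSeq form of 22 nt held 36.01% of the arm, the matching forms of 21 and 23 nt held 25.2% and 7.94%, the 22 nt form with an added T held 6.81% and the 21 nt form with an added A held 5.91%. miR-1839-5p, at 12.1% ± 2.3 (SD, n = 6), and miR-1839-3p, at 7.56% ± 4.3 (SD, n = 6), lay below the median, and A was first in 87.9% of the tailed miR-1839-5p reads. The matching forms of 22 and 21 nt from position 43 held 48.5% and 34.4% of miR-1839-3p.

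**Figure D4:**
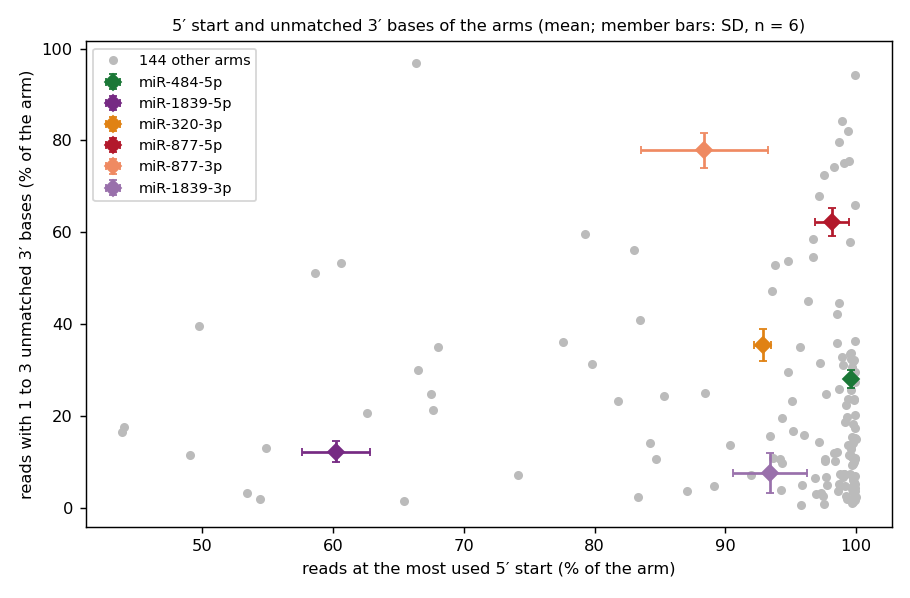
Percent of reads of an arm with 1 to 3 unmatched 3′ bases (y axis) against percent of reads at the most used 5′ start (x axis). Grey points are 144 other arms with at least 100 reads in every sample, and diamonds are the member arms with SD over 6 samples. miR-877-3p and miR-877-5p lie high at 77.8% and 62.3%, and miR-1839-5p lies to the left at 60.2%.

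None of these end measures differed detectably with LPS. For the dominant arms and the minor arms of Mir877 and Mir1839, the share at the main start, the share at the main 3′ end, the mean length and the share with unmatched bases gave 24 exact permutation tests, two-sided, with p between 0.2 and 1.0 before any adjustment, where 0.1 is the smallest p that 3 samples against 3 allow. Mean lengths were 22.6, 22.1, 22.4 and 22.5 nt for miR-320-3p, miR-484-5p, miR-877-5p and miR-1839-5p in both groups. Their differences, LPS minus Control, were 0.018, 0.0074, -0.049 and -0.0057 nt.

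In level, the 5 hairpins together made up 0.229% to 0.249% of hairpin reads in each sample. A read covers a whole small RNA, so the levels, in RPM, were not scaled by length. miR-484-5p was the most abundant, at rank 57 of 974 arms by mean level, above miR-1839-5p at rank 78 and miR-320-3p at rank 83. miR-877-5p was at rank 169, miR-877-3p at 192 and miR-1839-3p at 217. miR-484-5p was higher in every sample than any other member arm was in any. miR-1839-5p and miR-320-3p overlapped across samples, as did miR-877-3p with the arms on either side of it in this order.

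The comparison of LPS with Control asked whether super-low-dose LPS changes these miRNAs. In edgeR's quasi-likelihood fit, with p-values adjusted by Benjamini-Hochberg, 0 of the 6 member arms tested passed an adjusted p of 0.05, and 0% of the 319 arms tested passed it. Before adjustment, 7 of the 319 arms were higher and 1 was lower at a p under 0.05, and DESeq2 called 0 after adjustment and 4 before it. No member arm was among the 8 of edgeR, and each had an adjusted p of 0.994. The median log2 fold change was -0.0025 over the 6 member arms and 0.0027 over all 319.

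miR-484-5p was at 1207, 1488 and 1339 RPM in Control replicates 1 to 3 and at 1133, 1563 and 1332 in LPS replicates 1 to 3. The samples numbered 2 were the highest of both groups, and the groups overlapped. Its log2 fold change, LPS against Control, was -0.03 (SE 0.16, 95% interval -0.41 to 0.34).

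miR-320-3p was at 506, 430 and 465 RPM in the Control samples and at 449, 414 and 426 in the LPS samples. The groups overlapped, with 2 of the LPS samples under all the Control samples. The log2 fold change was -0.15 (SE 0.14, interval -0.48 to 0.18), and it was -0.033 without Control replicate 1. Between samples of the same number, which the labels do not call pairs, the LPS sample was the lower one in all 3. How many of all arms tested did so was not counted. A fit blocked on that number gave -0.14 (SE 0.089, adjusted p = 0.854 by edgeR).

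miR-1839-5p was at 628, 456 and 525 RPM in the Control samples and at 613, 385 and 508 in the LPS samples. LPS replicate 2 was the lowest, and the samples numbered 1 were the highest of both groups. The log2 fold change was -0.12 (SE 0.23, interval -0.67 to 0.42). It too was lower with LPS in all 3 comparisons of samples of the same number, again without a count over all arms. The blocked fit gave -0.14 (SE 0.10, adjusted p = 0.854 by edgeR). The 3p arm was at 22.7, 14.6 and 26.2 and then at 29.7, 17.3 and 19.3 RPM, with a log2 fold change of 0.04 (SE 0.32).

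miR-877-5p was the one member arm whose groups did not overlap. It was at 41.1, 37.9 and 38.5 RPM in the Control samples and at 42.6, 68.7 and 50.04 in the LPS samples, with LPS replicate 2 the highest and LPS replicate 1 close to the Control samples. All LPS samples lay above all Control samples in 1.57% of the 319 arms tested (5 arms), and below them in another 5 arms. These arms were counted on read counts scaled by edgeR's TMM, not on RPM. On that scale the groups of miR-877-5p were closest at 43.0 in Control replicate 1 and 43.9 in LPS replicate 1, still without overlap. Its log2 fold change was 0.43 (SE 0.23, interval -0.11 to 0.98), with an unadjusted p of 0.101 and an adjusted p of 0.994 by edgeR. Without LPS replicate 2, the library that stood apart and had the highest sum of epithelial markers (157 RPM), the log2 fold change was 0.18. Of these markers, miR-141-3p was not raised in that library. The part of these markers in the difference was not tested. The other arm of the same intron, miR-877-3p, was at 22.3, 26.3 and 38.9 and then at 25.2, 36.7 and 27.4 RPM, and its log2 fold change was 0.03 (SE 0.26). The groups overlapped for that arm.

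**Figure D5:**
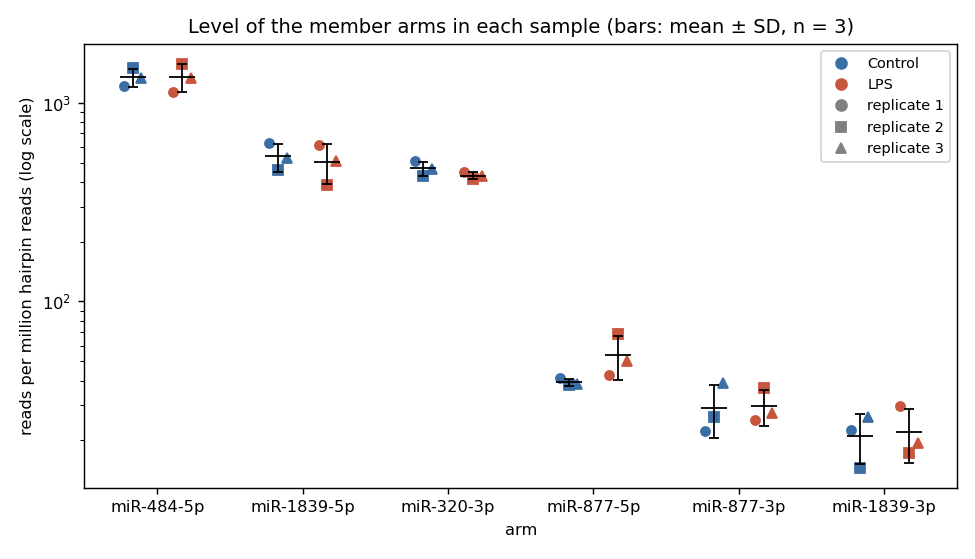
Level of 6 member arms in each sample, in RPM (y axis, log scale). Points are samples (Control blue, LPS red, shape by replicate number), and bars are means with SD (n = 3). Groups overlap for all arms but miR-877-5p, where the Control samples lie at 37.9 to 41.1 and the LPS samples at 42.6 to 68.7.

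Other hairpins known to be made without Drosha or from a snoRNA were read beside the members. Of the mirtrons Mir1224, Mir702 and Mir1981 and the snoRNA-derived Mir664, Mir1224 had no reads, 5 arms were tested and 0 of them passed an adjusted p of 0.05 by edgeR, with a median log2 fold change of 0.02. The largest of the 5 differences was that of miR-1981-5p, which averaged 21.6 ± 2.1 RPM (SD, n = 3) without LPS and 37.1 ± 19.8 (SD, n = 3) with it, for a log2 fold change of 0.77. It was at 59.2 RPM in LPS replicate 2 and at 20.3 to 31.4 in the other 5 samples.

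The arms whose log2 CPM followed each member most closely over the 6 samples, of 318 compared, are given as a description. The points share their libraries and depth, and picking the highest of 318 over 6 points in itself raises r. For miR-877-5p the arms were miR-467c-5p, miR-1981-5p and miR-29b-3p, with Pearson r of 0.978, 0.937 and 0.929. For miR-484-5p they were miR-147-3p, miR-505-3p and miR-128-3p (0.981, 0.953 and 0.947). For miR-320-3p they were miR-3470b-5p, miR-15b-5p and miR-361-3p (0.985, 0.929 and 0.889). For miR-1839-5p they were miR-148a-3p, miR-677-5p and miR-223-5p (0.992, 0.991 and 0.983).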

How the data were processed

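Small RNAs of 3 Control and 3 LPS samples were analysed. The authors trimmed adaptors and deposited raw counts of each distinct read of 11 to 40 nt, one file per sample, without miRNA names. The submitters' notes name mm9. Reads of at least 18 nt were matched here to 1174 GENCODE M21 hairpins (GRCm38), with up to 3 unmatched 3′ bases, and assigned to the arm holding the read's centre. Arms sharing at least 50% of their reads were merged. The members and lists were chosen with earlier results of these data known. Text names every member arm, end forms of at least 5% of an arm and the 3 most correlated arms. Arms passing filterByExpr were tested by edgeR 4.0.16 (TMM, R 4.3.3), with DESeq2 1.42.0 as an alternative, and shares by exact permutation tests (scipy 1.17.1). Structures came from RNAfold 2.7.2. Matching and testing were tested on simulated data. The simulated counts for edgeR held larger changes than the member arms and less spread than these samples, so they do not show the power for small changes. Samples sharing a number correlated in their deviations from the group means (r = 0.259 to 0.595), against -0.387 to 0.154 for different numbers. The labels give the numbers but do not say that they pair the samples, so pairing was not established. The main fit and the permutation tests did not use the numbers, and the replicate block is an alternative.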

Additional observations from a re-analysis of the deposited data

How the results depend on the processing

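The count of member arms past the threshold was 0 under all 13 alternatives, which were DESeq2, hairpin read totals without TMM, no low-count filter, the replicate block, exact matches only, reads of a single arm only, reads of at least 16 nt and each sample left out. The lowest adjusted p of a member arm over them was 0.421, for miR-877-5p without LPS replicate 1. Without the low-count filter, 21 arms passed over all hairpins, none of them a member. With the replicate block, the log2 fold change of miR-877-5p was 0.40 (adjusted p = 0.854 by edgeR), and the block changed no call. Leaving out 1 sample moved it between 0.18 and 0.56, and the sign of small differences turned. Log2 fold changes ran from -0.21 to -0.033 for miR-320-3p, which kept its sign, from -0.18 to 0.070 for miR-484-5p, from -0.19 to 0.25 for miR-877-3p, from -0.33 to 0.062 for miR-1839-5p and from -0.27 to 0.20 for miR-1839-3p. miR-877-3p was at -0.044 with exact matches only.

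With 1 sample left out, differences in ends (LPS minus Control) also turned. For miR-320-3p they ran from -0.27 to 0.73 percentage points at the main start, -0.023 to 0.052 nt in length and -4.37 to 0.36 points with unmatched bases. For miR-484-5p they ran from -0.096 to 0.13 points at the start, -1.12 to 3.80 points at the end, -0.015 to 0.024 nt and -0.55 to 1.82 points with unmatched bases. For miR-877-5p they ran from -1.55 to 0.30 points at the start, -0.096 to 0.0315 nt and -2.67 to 1.41 points. For miR-1839-5p they ran from -1.80 to 1.36 points at the start, -3.55 to 3.34 points at the end, -0.0385 to 0.029 nt and -1.76 to 1.47 points. With sequences read at least 2 times, the start difference was -0.18 points for miR-320-3p, -0.036 for miR-484-5p and -0.0085 for miR-1839-5p, the length difference of miR-877-5p was 0.064 nt, and the differences in unmatched bases were 2.17 points for miR-877-5p and 0.28 for miR-1839-5p. None of these passed a test, and the cause of the turns was not tested. Mir877, with 65 to 751 reads on its 5p arm, and Mir451a, with 7 reads, are limited by depth.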
